A study of Mus musculus with 6 samples.

Results

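The signalling genes described here carry the growth factor input to mTORC1, the kinase complex that sets the rate of cell growth. They are Pik3ca, Pik3cb and Pik3r1 (subunits of phosphoinositide 3-kinase, PI3K), Pdpk1, Akt1 and Akt2 (kinases), Tsc1 and Tsc2 (the tuberous sclerosis complex) and Rheb (a small GTPase). Members were chosen by gene symbol, and all 9 of the 9 symbols were found among the 24346 genes of the series. RNA-seq was run on kidney from mice whose other kidney had been removed (unilateral nephrectomy), with 3 D-serine libraries and 3 vehicle libraries. D-serine mice drank water with 0.1% D-serine and vehicle mice drank it without, both on a diet free of serine for 1 week before surgery, and tissue was taken 2 days after surgery in both groups. All 6 libraries thus come from operated mice on the same diet. The labels name no strain, sex or age. They do not say whether the libraries of a group are from separate animals, and p-values therefore reflect the spread between these libraries, which may be technical.

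In this pathway an activated receptor recruits PI3K to the membrane, where it phosphorylates an inositol lipid. That lipid draws AKT and the kinase encoded by Pdpk1 together, and AKT becomes active. AKT phosphorylates TSC2 and so releases Rheb from the TSC complex, which otherwise switches Rheb off, and GTP-bound Rheb activates mTORC1 at the lysosome. The route is known in the kidney for growth of the remaining organ after nephrectomy in mice, and loss of TSC1 or TSC2 causes renal tumours and cysts in humans. Its steps run through phosphorylation and lipid signals, which messenger RNA levels do not measure.

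None of the 9 genes passed the test for a difference between D-serine and vehicle kidneys. The median of the 9 log2 differences, D-serine minus vehicle, was -0.14, beside -0.0078 over all tested genes. Pdpk1 differed most, at 3.93 ± 0.569 FPKM in D-serine kidneys and 5.88 ± 0.650 FPKM in vehicle kidneys (SD, n = 3 each). Pik3cb and Rheb were the other genes whose D-serine libraries all lay below the vehicle libraries. With Pdpk1 they make 3 of the 9, beside 19.4% of all tested genes separate in that direction and 16.5% in the other. Akt1 and Tsc2 differed least, with D-serine means that differed from the vehicle means by -3.22% and -3.57%. FPKM is the number of sequenced fragments scaled to transcript length and to library size, so levels can be compared between genes.

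Stretches of sequence bear on how far the values of these genes can be separated. Others show what lies at the start of the genes whose groups did not overlap. Akt1 and Akt2 encode closely related kinases, and the longest run of bases that their longest annotated transcripts share is 32 bases, inside a 60-base coding window with 6 differences. The windows are at chr12:112656817-112656876 on the minus strand for Akt1 and chr7:27636379-27636438 on the plus strand for Akt2, from GENCODE M21 (GRCm38, the assembly of mm10). Capitals mark the bases at which the windows differ.
Akt1: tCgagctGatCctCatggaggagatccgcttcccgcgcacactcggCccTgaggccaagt
Akt2: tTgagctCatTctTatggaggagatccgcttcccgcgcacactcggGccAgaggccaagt
No 50-base window of the Akt1 transcript occurred in a transcript of another gene. Of the 4495 such windows of Akt2, 717 (15.95%) also occurred in the processed pseudogene Akt2-ps, for which no value was used here. For Pik3cb 373 of 6429 windows (5.80%) were shared with transcripts named Gm12992 and Gm12978. For the other 6 genes at most 0.36% of windows occurred in transcripts of other genes. Windows were compared only in the direction in which each transcript is read. Overlap with a gene on the opposite strand, as of Tsc2 with Pkd1 (described below), is therefore not counted in these shares.

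Promoter windows of 300 bases, from 250 before to 50 after an annotated start, are shown for Pdpk1, Pik3cb and Rheb because their groups did not overlap. They come from RefSeq (GRCm38.p6), which lists 15 windows for the 9 genes. Capitals mark exact matches on either strand to 4 short motifs: GTAAACA (bound by FOXO factors, which AKT controls), CACGTG (the E-box), GGGCGG (the GC box) and TATAAA (the TATA box). Pdpk1 has an upstream start at chr17:24150873-24151172 and a downstream start at chr17:24141545-24141844. The Pik3cb window is chr9:99140162-99140461 and the Rheb window chr5:24842312-24842611, all on the minus strand.
Pdpk1 upstream start: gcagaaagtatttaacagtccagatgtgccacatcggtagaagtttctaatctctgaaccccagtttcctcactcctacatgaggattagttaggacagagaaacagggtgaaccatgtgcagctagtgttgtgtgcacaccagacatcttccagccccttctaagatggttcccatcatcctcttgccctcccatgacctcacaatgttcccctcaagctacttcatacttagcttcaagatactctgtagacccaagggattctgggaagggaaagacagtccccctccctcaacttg
Pdpk1 downstream start: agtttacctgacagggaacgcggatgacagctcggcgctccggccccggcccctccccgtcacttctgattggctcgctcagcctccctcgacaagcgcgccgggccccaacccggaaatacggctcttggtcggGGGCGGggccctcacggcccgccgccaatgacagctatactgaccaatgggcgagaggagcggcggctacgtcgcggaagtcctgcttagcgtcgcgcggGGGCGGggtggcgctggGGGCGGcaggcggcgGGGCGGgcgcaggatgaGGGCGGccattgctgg
Pik3cb: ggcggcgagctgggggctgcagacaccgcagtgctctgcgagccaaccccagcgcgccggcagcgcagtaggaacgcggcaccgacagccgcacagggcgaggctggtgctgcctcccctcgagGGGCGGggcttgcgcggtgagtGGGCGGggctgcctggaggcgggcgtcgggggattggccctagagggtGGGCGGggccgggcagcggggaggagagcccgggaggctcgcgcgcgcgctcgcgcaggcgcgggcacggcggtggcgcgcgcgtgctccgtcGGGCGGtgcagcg
Rheb: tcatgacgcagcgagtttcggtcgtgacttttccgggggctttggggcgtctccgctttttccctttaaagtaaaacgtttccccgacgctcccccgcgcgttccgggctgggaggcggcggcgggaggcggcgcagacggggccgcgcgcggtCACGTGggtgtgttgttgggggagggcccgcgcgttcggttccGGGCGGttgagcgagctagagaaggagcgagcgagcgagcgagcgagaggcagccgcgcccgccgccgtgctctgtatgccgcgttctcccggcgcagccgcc
The downstream Pdpk1 window held 5 GC box matches, the Pik3cb window 4 and the Rheb window 1, against 0 in the upstream Pdpk1 window. Of the 15 windows of the 9 genes, 7 held a GC box. Among them were an Akt1 window with 5 matches and a Pik3r1 window with 4, both of genes whose groups overlapped. Of all 32851 RefSeq promoter windows, 35.66% held a GC box, 7.15% an E-box, 3.65% the FOXO motif and 13.62% the TATA box. The E-box stood in the Rheb window alone among the 15, and no motif matches overlapped in the 4 windows printed. The 1 FOXO motif match among the 15 windows lay in an Akt1 window that is not printed. These are letter matches, and no binding was measured.

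The 9 genes spanned a 12.1-fold range of mean level over the 6 libraries, from Rheb at 58.2 FPKM to Pik3cb at 4.80 FPKM. Rheb was followed by Akt2 (32.2 FPKM), Akt1 (25.7 FPKM), Tsc2 (14.2 FPKM), Pik3ca (8.83 FPKM) and Pik3r1 (6.43 FPKM), and each gene down to Pik3r1 lay below the one before it in 6 of 6 libraries, with no overlap in either group. The lower end of the order was not separated. Pik3r1 exceeded Tsc1 (5.64 FPKM) in 4 of 6 libraries, Tsc1 exceeded Pdpk1 (4.91 FPKM) in 5, and Pdpk1 exceeded Pik3cb in 3. The libraries held an estimated 7290000 to 7780000 mapped fragments with D-serine and 7860000 to 8710000 with vehicle. At that depth the longest Pdpk1 transcript had about 180 to 410 fragments per library and Rheb about 1600 to 2300.

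**Figure D1:**
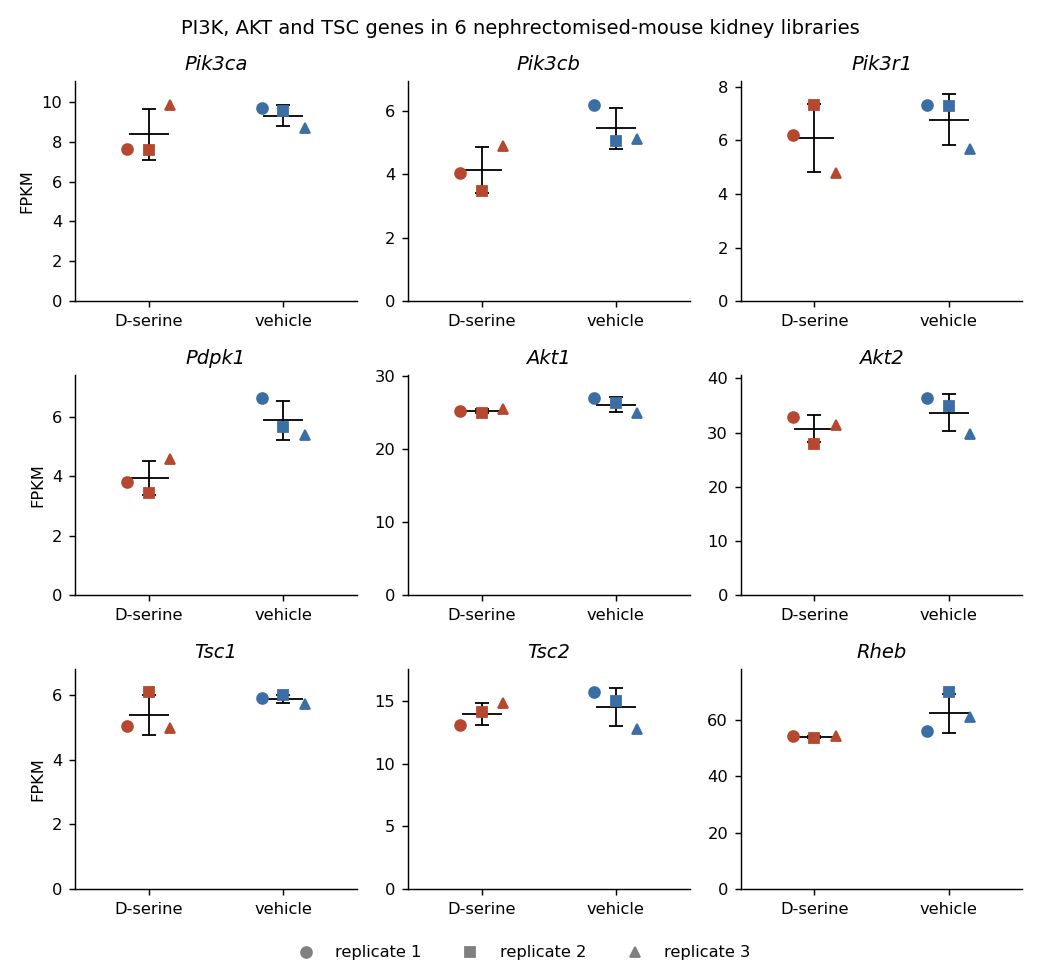
FPKM of each gene in the D-serine libraries (left, red) and the vehicle libraries (right, blue). Symbols are replicates, and bars show the mean and SD of 3 libraries. Every panel starts at 0. The D-serine symbols lie below all vehicle symbols for Pdpk1, Pik3cb and Rheb, and the groups overlap in the other 6 panels.

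Tests were run with limma on log2(FPKM + 1) over the 11737 genes whose mean reached 1 FPKM, all 9 members among them, with Benjamini-Hochberg adjustment over all tested genes. At an adjusted p of 0.05, limma called 0 of the 9, where 0.0767% of all tested genes were called (8 lower and 1 higher). With small RNA genes left out of the fit, limma again called 0 of the 9, where 2.85% of 11637 genes were called, 1.58% lower and 1.27% higher. At an unadjusted p under 0.05, 2 of the 9 passed, Pdpk1 and Pik3cb, beside 27.7% of all tested genes. All 9 differences were below 0, as were 51.1% of all. The D-serine libraries lay below the vehicle libraries for 3 of the 9, beside 19.4% of all tested genes, and above them for 0, beside 16.5%. Without vehicle replicate 3 6 of the 9 had separate groups, all lower, because Akt1, Akt2 and Tsc2 joined. In that comparison of 3 libraries with 2, separation was also more common among all tested genes, 26.1% lower and 22.5% higher.

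**Figure D2:**
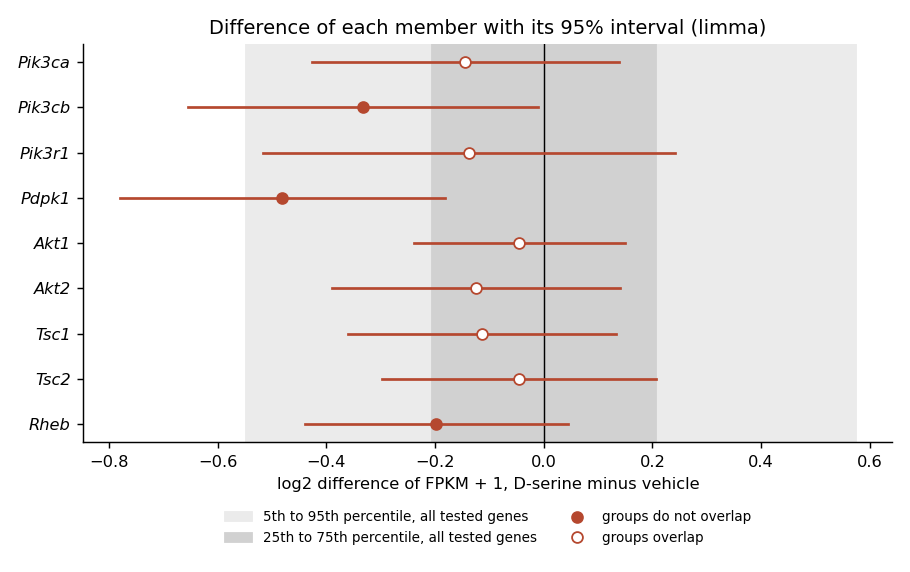
Log2 difference of FPKM + 1 (D-serine minus vehicle) for each gene, with its 95% interval from limma. Filled points mark the 3 genes whose groups do not overlap, and grey bands hold the middle of all 11737 tested genes, from -0.21 to 0.21 (dark) and from -0.55 to 0.57 (light). All 9 points lie below 0 and inside the light band.

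Pik3ca and Pik3cb encode the catalytic subunits p110-alpha and p110-beta of class IA PI3K. Pik3cb had 4.03, 3.49 and 4.91 FPKM in D-serine kidneys, against 6.20, 5.06 and 5.10 FPKM in vehicle kidneys. The highest D-serine value and the lowest vehicle value differed by little, and D-serine replicate 2 was the lowest library. The log2 difference was -0.33 ± 0.14 (SE, limma adjusted p = 0.17), lower in 3 of 3 libraries. Pik3ca had 7.64, 7.60 and 9.85 FPKM in D-serine kidneys, against 9.66, 9.55 and 8.68 FPKM in vehicle kidneys. D-serine replicate 3 was the highest library of all 6, so the groups overlapped, and the log2 difference of -0.14 had a 95% interval from -0.43 to 0.14 (limma adjusted p = 0.45). How fragments from the sequence shared with Gm12992 were assigned is not stated. Gm12992, named after its values were seen, stood at 16.1 FPKM in D-serine kidneys and 14.9 FPKM in vehicle kidneys, with a log2 difference of 0.11.

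Within a library the ratio of Pik3ca to Pik3cb does not depend on how libraries are scaled. It was 1.89, 2.18 and 2.01 in D-serine kidneys, against 1.56, 1.89 and 1.70 in vehicle kidneys. D-serine replicate 1 and vehicle replicate 2 nearly coincided, and no vehicle library exceeded a D-serine library. The difference in the log2 ratio was 0.24 (two-sided exact permutation test, p = 0.10, adjusted p = 0.40 over the 4 ratios tested), and 0.1 is the smallest p that 3 against 3 allows. The third class IA catalytic gene, Pik3cd, which is mostly known from leukocytes and is named after its values were seen, stood at 0.359 and 0.238 FPKM in D-serine and vehicle kidneys.

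Pik3r1 encodes p85-alpha, the regulatory subunit that holds the catalytic subunit at activated receptors. Its libraries had 6.18, 7.32 and 4.78 FPKM in D-serine kidneys, against 7.33, 7.29 and 5.67 FPKM in vehicle kidneys. The spread within the D-serine group was the widest of the 9 genes (coefficient of variation 20.9%), and the log2 difference of -0.14 ± 0.16 (SE, limma adjusted p = 0.60) turned to 0.0022 without D-serine replicate 3. The ratio of Pik3r1 to the sum of Pik3ca and Pik3cb ran from 0.324 to 0.660 in D-serine kidneys and from 0.411 to 0.499 in vehicle kidneys. This ratio did not separate the groups (exact permutation test, p = 0.80), and its log2 difference of 0.087 turned to -0.14 without D-serine replicate 2. Pik3r2, which encodes p85-beta and is named after its values were seen, was the more abundant regulatory gene, at 13.7 ± 0.595 FPKM in D-serine kidneys and 14.1 ± 0.900 FPKM in vehicle kidneys (SD, n = 3 each).

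Pdpk1 encodes the kinase that phosphorylates the activation loop of AKT and of related kinases such as S6 kinase and SGK. It had 3.80, 3.45 and 4.56 FPKM in D-serine kidneys, against 6.61, 5.64 and 5.38 FPKM in vehicle kidneys. The highest D-serine library was below the lowest vehicle library, and the D-serine mean was 33.0% below the vehicle mean. The log2 difference was -0.48 ± 0.13 (SE, 95% interval from -0.78 to -0.18), lower in 3 of 3 libraries, and it did not pass over all genes (limma adjusted p = 0.085, unadjusted p = 0.0064). Of all tested genes, 7.48% had a smaller p and 6.53% a more negative difference. Leaving out 1 library at a time kept the difference between -0.57 and -0.41.

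Transcript length and base composition moved with the comparison over the whole table, and their part in the values of single genes was not tested. Among the 2827 genes with the longest transcripts, from 4611 bases, 67.4% were lower in D-serine kidneys with a median log2 difference of -0.11. Among the 2828 with the shortest, up to 2059 bases, 33.9% were lower and the median was 0.12. Pdpk1, Pik3ca, Pik3cb, Pik3r1, Tsc1 and Tsc2 are all in the longest class. With a trend on length and GC content removed from each library, the log2 difference of Pdpk1 was -0.32 (limma adjusted p = 0.14) and that of Pik3cb -0.18 (adjusted p = 0.36). The groups then remained separate for Pdpk1, no longer for Pik3cb and Rheb, and became separate for Akt1, which has a shorter and GC-rich transcript (log2 difference -0.20, limma adjusted p = 0.22). Pik3ca and Pik3r1 turned to 0.044 and 0.030.

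Genes with the pattern most like Pdpk1 over the 6 libraries were sought by the root mean square difference of log2(FPKM + 1), centred on each gene's mean, among 7837 candidate genes whose mean reached 5 FPKM. Golga4, which encodes a golgin of the trans-Golgi network, was nearest at 0.028. It had 15.8, 14.2 and 18.2 FPKM in D-serine kidneys, against 25.6, 23.1 and 21.1 FPKM in vehicle kidneys. Atp13a3 (0.043), a transport ATPase, came next. Vil1 (0.048), which encodes the microvillus protein villin, and Mertk (0.0525), a receptor for apoptotic cells, followed. Their log2 differences lay between -0.51 and -0.43, with limma adjusted p from 0.071 to 0.091, so none of these 4 passed. Because likeness was taken over both groups, differences near that of Pdpk1 follow from how the genes were chosen.

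Akt1 and Akt2 encode the kinases that act on TSC2, and Akt2 is the isoform best known for insulin action. Akt1 had 25.3, 25.04 and 25.6 FPKM in D-serine kidneys, against 27.0, 26.4 and 25.05 FPKM in vehicle kidneys. These were tight groups that overlapped through vehicle replicate 3, and the 95% interval of the log2 difference (-0.045) ran from -0.24 to 0.15 (limma adjusted p = 0.74). Akt2 had 32.9, 27.9 and 31.5 FPKM in D-serine kidneys, against 36.3, 34.9 and 29.8 FPKM in vehicle kidneys. Vehicle replicate 3 again lay among the D-serine libraries, and the log2 difference was -0.12 with an interval from -0.39 to 0.14 (limma adjusted p = 0.49). The ratio of Akt1 to Akt2 was 0.769, 0.898 and 0.813 in D-serine kidneys, against 0.743, 0.756 and 0.842 in vehicle kidneys. Akt2 was the more abundant of the pair in 6 of 6 libraries, and the ratio did not separate the groups (exact permutation test, p = 0.50).

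Tsc1 encodes hamartin, which stabilises the complex, and Tsc2 encodes tuberin, whose GTPase-activating domain switches Rheb off. Tsc1 had 5.06, 6.10 and 4.9997 FPKM in D-serine kidneys, against 5.91, 6.01 and 5.75 FPKM in vehicle kidneys. D-serine replicate 2 was the highest of all 6 libraries while replicates 1 and 3 were the lowest, and the log2 difference was -0.11 (95% interval from -0.36 to 0.13, limma adjusted p = 0.50). Tsc2 had 13.1, 14.1 and 14.8 FPKM in D-serine kidneys, against 15.7, 15.04 and 12.8 FPKM in vehicle kidneys. The lowest and the highest library were both vehicle libraries, and the log2 difference of -0.046 (interval from -0.30 to 0.21, limma adjusted p = 0.80) turned to 0.0096 without vehicle replicate 1. Tsc2 was more abundant than Tsc1 throughout, with a Tsc1 to Tsc2 ratio from 0.338 to 0.432 in D-serine kidneys and from 0.376 to 0.449 in vehicle kidneys (exact permutation test, p = 0.50).

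The 3' part of Tsc2 (chr17:24595816-24632630, minus strand) runs into that of Pkd1, the polycystic kidney disease gene on the opposite strand, with 693 bases of shared exon sequence in the annotation. The library kit keeps strand, but no source used here says whether strand was used in counting. Pkd1 stood at 1.88 FPKM in D-serine kidneys and 1.87 FPKM in vehicle kidneys (log2 difference -0.0046, limma adjusted p = 0.99). No other gene of the 9 shared annotated exon bases with another gene.

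Rheb encodes the GTPase that activates mTORC1. It had 54.4, 53.5 and 54.1 FPKM in D-serine kidneys, against 56.2, 69.8 and 61.0 FPKM in vehicle kidneys. D-serine libraries lay within 1 FPKM of each other and just below vehicle replicate 1, while the vehicle libraries were spread (SD 0.439 and 6.90 FPKM). Its log2 difference was -0.20 ± 0.10 (SE, limma adjusted p = 0.25), with a 95% interval from -0.44 to 0.044. That difference was -0.11 without vehicle replicate 2 and -0.097 once the trend on length and GC content was taken out. Under quantile normalization the Rheb groups overlapped.

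**Figure D3:**
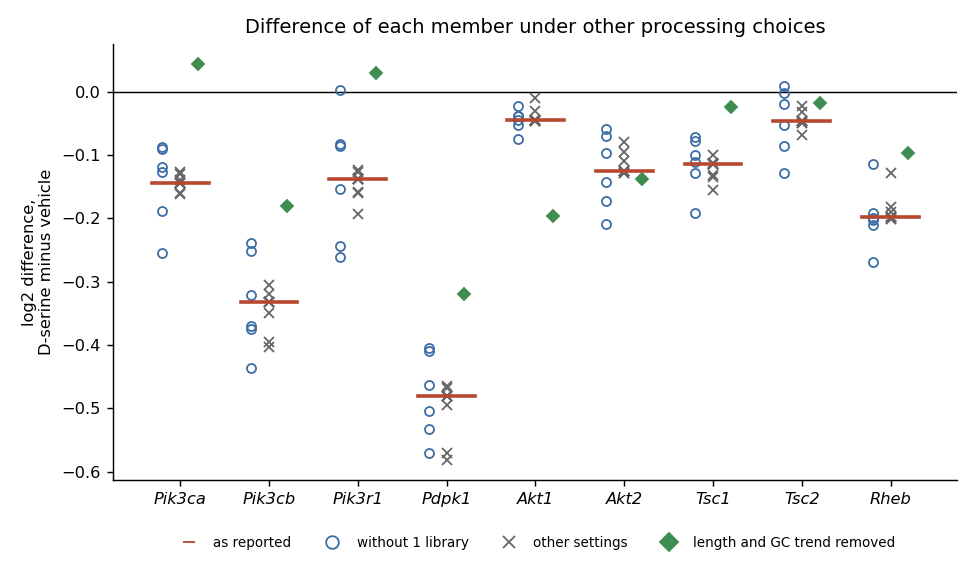
Log2 difference (D-serine minus vehicle) of each gene as reported (red bar), without each library in turn (blue circles), with the length and GC trend removed (green diamonds) and under the other settings (grey crosses). Pdpk1 stays between -0.58 and -0.32, Pik3ca and Pik3r1 cross 0 once the trend is removed, and Pik3r1 and Tsc2 also cross 0 without 1 library.

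Around these genes, 89 others of the pathway were listed by role, and 78 of them were tested. In D-serine kidneys 47 were lower and 31 higher, with a median log2 difference of -0.10. Only Mtor was called, lower, beside 0.0682% of all tested genes called lower and 0.00852% called higher. At an unadjusted p under 0.05, 14 were lower and 6 higher, beside 14.6% and 13.1% of all tested genes. D-serine libraries lay below vehicle libraries for 15 of the 78, beside 19.4% of all tested genes, and above them for 7, beside 16.5%.

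Upstream of PI3K, 9 of 13 tested receptors and adaptors were lower in D-serine kidneys (median log2 difference -0.30), beside 51.1% of all tested genes. Of the 13, 0 were called (4 lower and 1 higher at an unadjusted p under 0.05). Apart from Grb2, the tested genes of this list are in the longest transcript class. In that class 67.4% of all genes were lower, with a median of -0.11. Met, the receptor of hepatocyte growth factor, had 16.9, 13.7 and 18.7 FPKM in D-serine kidneys, against 29.3, 31.2 and 25.9 FPKM in vehicle kidneys. The groups were far apart, and the log2 difference of -0.78 ± 0.13 (SE) missed the threshold (limma adjusted p = 0.058). With the length and GC trend removed it was -0.62 (limma adjusted p = 0.066). Met passed in 6 of 17 alternative fits. Gab1, a docking protein that links Met to PI3K, had a log2 difference of -0.34 (limma adjusted p = 0.11). Among the other PI3K subunits and regulators, 4 of 9 were tested, 2 higher and 2 lower, and 0 were called. Pik3ip1, a membrane inhibitor of PI3K, was at 5.09 ± 0.349 FPKM with D-serine and 3.16 ± 0.796 FPKM with vehicle (SD, n = 3 each, limma adjusted p = 0.095). Pik3r4, a subunit of the class III kinase, was at 5.32 and 5.98 FPKM.

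Brakes on the pathway were 4 higher and 6 lower of 10 tested, with 0 called. Phlpp1, a phosphatase that acts on AKT, was at 2.34 and 3.21 FPKM with overlapping groups.

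Of the other kinases and mTORC2 subunits that act on or beside AKT, 6 of 8 tested were lower and 1 was called. Mtor fell, with 18.5, 18.0 and 17.5 FPKM in D-serine kidneys, against 35.4, 30.1 and 33.3 FPKM in vehicle kidneys (log2 difference -0.83 ± 0.0945 SE, limma adjusted p = 0.049). The call passed in 8 of 17 alternative fits and in 1 of 6 fits without 1 library (D-serine replicate 3), and the difference was -0.80 with the length and GC trend removed. Sgk1, a salt-regulated kinase that Pdpk1 also activates, ran from 37.2 to 43.9 FPKM with D-serine and from 36.6 to 89.6 FPKM with vehicle, so that the groups overlapped through vehicle replicate 1.

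AKT substrates were split, 6 higher and 6 lower of 12, with 0 called. Foxo3, a transcription factor that AKT keeps out of the nucleus, had 1.77, 1.32 and 2.28 FPKM in D-serine kidneys, against 5.53, 3.27 and 2.93 FPKM in vehicle kidneys. Its groups were separate but low and uneven (log2 difference -0.79 ± 0.22 SE, limma adjusted p = 0.095). Removal of the length and GC trend left a difference of -0.73 (limma adjusted p = 0.11). Foxo4 was at 10.6 and 12.7 FPKM and Foxo1, with overlapping groups, at 7.30 and 9.21 FPKM in D-serine and vehicle kidneys. Genes known as FOXO targets were 4 higher and 14 lower of 18 tested, beside 51.1% of all tested genes lower. Their median log2 difference was -0.15, beside -0.0078 over all tested genes, and 0 were called. At an unadjusted limma p under 0.05, 3 were lower and 0 higher, beside 14.6% and 13.1% of all tested genes. Groups did not overlap for 3 lower and 1 higher, beside 19.4% and 16.5%. Klf15, a transcription factor, was at 43.8 ± 1.32 FPKM with D-serine and 62.5 ± 11.9 FPKM with vehicle, and Cat, encoding catalase, at 534 ± 55.1 and 682 ± 41.6 FPKM (SD, n = 3 each, limma adjusted p = 0.095 and 0.10).

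Kinases and inhibitors that act on the TSC complex from outside AKT were 8 higher and 6 lower of 14, with 0 called. Stk11, which encodes LKB1, the activator of the energy sensor AMPK, had 52.3, 53.0 and 45.0 FPKM in D-serine kidneys, against 34.5, 38.4 and 36.7 FPKM in vehicle kidneys. All D-serine libraries were higher (log2 difference 0.44 ± 0.10 SE, limma adjusted p = 0.074). The difference was 0.32 with the length and GC trend removed (limma adjusted p = 0.11). Prkab1, a regulatory subunit of AMPK, was at 38.0 ± 2.90 FPKM with D-serine and 29.2 ± 1.60 FPKM with vehicle (SD, n = 3 each, limma adjusted p = 0.085). Tbc1d7, the third subunit of the TSC complex, was at 14.1 and 13.7 FPKM, and Rhebl1, a relative of Rheb, at 9.29 ± 3.54 and 6.69 ± 1.82 FPKM with overlapping groups.

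**Figure D4:**
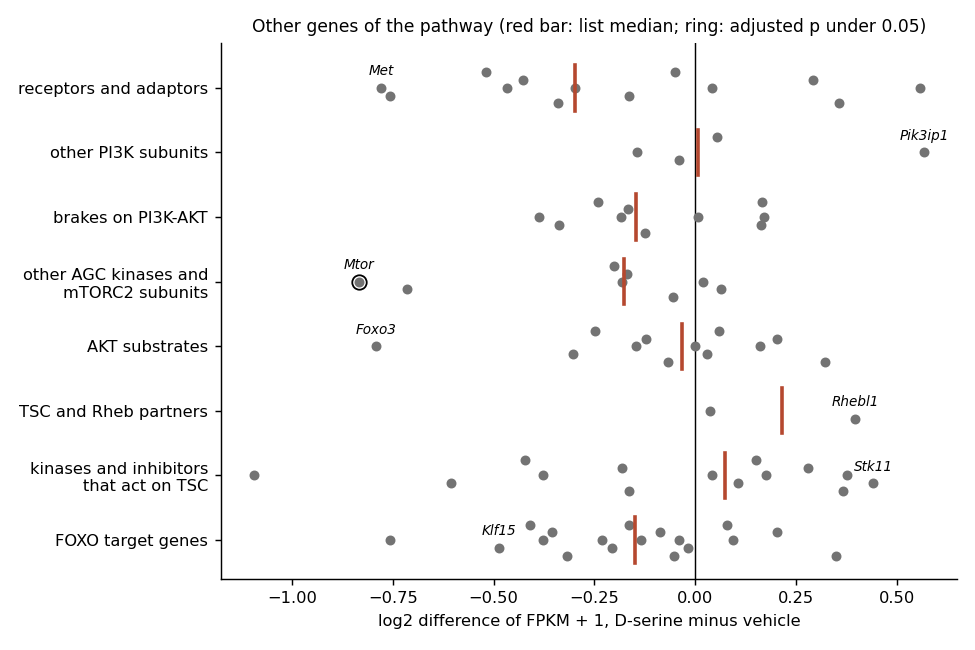
Log2 difference of FPKM + 1 (D-serine minus vehicle) of every tested gene in the 8 pathway lists, 1 point per gene, with the list median in red and a ring around the gene that passed at an adjusted p of 0.05. The ring marks Mtor alone. The receptors and adaptors have the lowest median, at -0.30.

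Cell type markers also moved with the groups, and their part in the values above was not tested. Markers of the kidney's own cell types were present in all 6 libraries. The summed level of 8 markers of proximal tubule segments S1 and S2 ran from 2652 to 3075 FPKM with D-serine and from 3078 to 3501 FPKM with vehicle, with 8 of 8 lower. That of 6 S3 markers ran from 590.2 to 958.5 FPKM with D-serine and from 1161 to 1438 FPKM with vehicle (5 of 6 lower). Principal cell markers were higher in 6 of 6 cases (643.7 to 974.1 FPKM with D-serine and 437.1 to 586.9 FPKM with vehicle). Markers of the distal convoluted and connecting tubule and of intercalated cells were higher in 5 of 5 cases each. So were the tested markers of podocytes and of fibroblasts, pericytes and smooth muscle. The podocyte sums with D-serine (28.4 to 33.9 FPKM) nevertheless lay inside the vehicle range (9.57 to 49.1 FPKM). Endothelium had 4 of 5 tested markers higher and the thick ascending limb 3 of 5. Sums overlapped for both, endothelium at 19.5 to 28.9 FPKM with D-serine and 10.8 to 23.3 FPKM with vehicle. Those of the thick ascending limb were 674.6 to 1196.9 FPKM and 1091.5 to 1293.2 FPKM. Dividing cell markers summed to between 57.3 and 201.4 FPKM with D-serine and between 11.4 and 15.2 FPKM with vehicle. Leukocyte markers were near the floor in both groups (4.59 to 7.86 FPKM and 5.59 to 7.44 FPKM), with Adgre1, Cd3e and Cd79a listed at 0 in at least 1 library. In bulk kidney, fewer cells of a type and less RNA per cell cannot be told apart.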

How the data were processed

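Kidney RNA of 6 libraries was extracted with TRIzol and prepared with a stranded messenger RNA kit, per the labels' protocols. The submitters' processing notes name TopHat2 2.0.13, Bowtie2 2.2.3, SAMtools 0.1.19, Cufflinks 2.2.1 and mm10. Each library's deposited table holds FPKM values. No source used here names the gene annotation or says how strand was handled. An exact 0 in such tables can be a failed estimate.

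The FPKM tables hold no read totals. Relative depth was read from the most frequent ratio between libraries of values under 0.3 FPKM, and totals from 55 single-transcript genes whose values were whole steps within 3%. These totals are rough, cover counting error only, and depend on transcript models.

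Differences were tested with limma 3.58.1 in R 4.3.3 (mean-variance trend, two-sided) on log2(FPKM + 1), which understates the change of low genes. A gene was tested where its mean reached 1 FPKM, and significance was set at an adjusted p of 0.05. Ratios were compared by an exact permutation test over the 20 assignments of libraries (scipy 1.17.1). Transcript length and GC content, from GENCODE M21, matched 11309 tested genes (96.4%). The fit was checked on simulated data with 200 of 11737 genes changed. It recovered 10.5% of those changed 1.5-fold and 92.0% of those changed 2-fold, so differences of the size seen in the 9 genes would mostly be missed. The members, lists and tests were chosen with earlier results of these data known. Genes named were the 9 members, the 2 genes of smallest unadjusted p in each pathway list, any called gene, Mtor and Foxo1, genes that share exon bases with a member, and the 5 genes most like the member of smallest p, leaving out predicted and small RNA genes. Some genes that this rule names are not reported here. Pik3cd, Pik3r2 and Gm12992 were added after their values were seen. The labels name no batch.

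Alternatives covered the pseudocount (0.1 and 0.01 FPKM), the minimum (none and 5 FPKM), scaling, the trend, library weights, a replicate block, small RNA genes, a loess trend on length and GC (span 0.5), and each library left out.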

Additional observations from a re-analysis of the deposited data

How the results depend on the processing

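No gene of the 9 was called under any of the 17 alternatives. Over all genes, the count of 9 calls was 171 and 221 with pseudocounts of 0.1 and 0.01, 132 with a minimum of 5 FPKM, 15 with median-of-ratios scaling, 269 with library weights, 332 without small RNA genes, 23 after removal of the length and GC trend, and 2 to 437 without 1 library (24 without D-serine replicate 1, 437 without D-serine replicate 3, and 4, 3 and 2 without vehicle replicates 1, 2 and 3). The cause was not tested. With 332 genes called (2.85% of 11637), Pdpk1 had an adjusted p of 0.072 in limma. The count of genes with separate groups was 1 with a minimum of 5 FPKM, which leaves out Pdpk1 and Pik3cb, and 3 to 6 without 1 library, the 6 without vehicle replicate 3. Without 1 library, between 22.4% and 26.3% of all tested genes had separate groups with D-serine lower. Of the other pathway genes, for which alternatives were chosen after seeing the data, 1 was called as reported. That count was 2 (Mtor and Met) with either pseudocount, a minimum of 5 FPKM, library weights or no small RNA genes, and 0 with no minimum, quantile normalization or no trend. It was 3 without D-serine replicate 3 and 0 without any other library. Signs turned for Pik3ca (0.044) and Pik3r1 (0.030) with the length and GC trend removed. They also turned for Pik3r1 (0.0022, with a range over the left-out libraries from -0.26) without D-serine replicate 3, Tsc2 (0.0096, range from -0.13) without vehicle replicate 1, the Tsc1 to Tsc2 log2 ratio (0.0068) without D-serine replicate 3, and the ratio of Pik3r1 to Pik3ca and Pik3cb (-0.14) without D-serine replicate 2. Without 1 library the 4 log2 ratio differences ran from 0.021 to 0.14 (Akt1 to Akt2), 0.18 to 0.31 (Pik3ca to Pik3cb), -0.17 to 0.0068 (Tsc1 to Tsc2) and -0.14 to 0.38 (Pik3r1).

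Same-numbered libraries had deviation correlations of -0.070, 0.0031 and 0.067, and the other pairs ran from -0.082 to 0.0825. With 3 libraries per group these values cannot exclude that the numbers pair the samples. The replicate block gave 2 calls over all genes, 0 among the 9 and 0 among the other pathway genes. Precision is limited by 3 libraries per group and, for Pdpk1 and Pik3cb, by 160 to 410 estimated fragments per library.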
